A study of Mus musculus and Homo sapiens with 40 samples.

Results

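The loci of 9 transcription factor genes of blood stem and progenitor cells were examined in ChIP-seq peak lists from a mouse progenitor line that carried 1 of the CEBPA isoforms. The genes were *Gata2*, *Runx1*, *Tal1*, *Lyl1*, *Lmo2*, *Fli1* and *Erg*, known together as the heptad, with *Gfi1b* and *Meis1*, and they were taken by name from 21757 protein-coding genes of the annotation. A locus was the gene body with 50 kb on both sides (GENCODE, GRCm39), and a peak belonged to it when its summit lay inside. The 9 loci spanned 1682 kb in all, from 104 kb at *Lyl1* to 327 kb at *Erg*.

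The heptad proteins bind regulatory elements of progenitor cells together and also bind elements of each other's genes, which keeps the circuit running. GATA2 recognises GATA sites, RUNX1 the RUNX site, FLI1 and ERG are ETS factors, TAL1 and LYL1 are helix-loop-helix proteins that bind E-boxes, and LMO2 bridges such proteins without touching DNA itself. GFI1B is a zinc finger repressor of erythroid and megakaryocytic cells, and MEIS1 is a homeobox protein known as a partner of HOXA9 in leukaemia. CEBPA drives progenitors towards the myeloid fate, away from the state that the heptad maintains, and acts as the full-length p42 or as the shorter p30, which lacks the N-terminal part of the activation domain.

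The cells were HPC-7, a mouse haematopoietic progenitor line grown in stem cell factor. According to the study, they were transduced with a retrovirus for CEBPA p42 or p30 fused to ERT2, a modified oestrogen receptor fragment, together with GFP, were sorted, and held very little CEBPA of their own. The study used 4-hydroxytamoxifen to bring the fusion into the nucleus, but the sample labels do not name it. Each isoform was one transduced line, so line and isoform cannot be told apart. H3K27ac, a mark of active promoters and enhancers, was measured in p42 and p30 cells, untreated or after LPS at 100 ng/mL for 2 h, with 3 samples in each group pooled into 1 peak list. For H3K4me1, which marks enhancers, 2 samples of each untreated line were pooled. CEBPA binding was profiled once per line by anti-CEBPA and once by anti-ER, which recognises the receptor part of the fusion. The 10 lists therefore had 1 value per group, no spread between replicates and no test, and differences are given as values beside those of all genes.

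The lists held 107141 to 142419 H3K27ac peaks, 134658 and 168035 H3K4me1 peaks and 23248 to 47517 CEBPA sites. The depth of the libraries is unknown from these lists, and the LPS-treated p42 list was the shortest of the H3K27ac lists. All 5 progenitor markers (*Kit*, *Cd34*, *Ptprc*, *Myb*, *Spi1*) had H3K27ac at a promoter in all 4 lists, and none of the 3 T cell markers and none of the 3 fibroblast markers had it in any list. Of the endothelial markers, *Cdh5* and *Pecam1* had it in all 4 lists and *Kdr* and *Tek* in none. *Apoa2* among the hepatocyte genes had it in all 4 lists, *Epb42* among the erythroid genes in both p30 lists and *Cd79a*, of 3 B cell genes, in the LPS-treated p30 list, while *Hbb-bs*, *Alb* and *Ttr* had none.

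All 9 genes carried H3K27ac at a promoter (1000 bp upstream to 100 bp downstream of a coding start) in all 4 lists, as did 49.3% of all protein-coding genes. Coverage, the length under peaks per 100 kb of locus, was above the median of all genes at 9 of 9 loci in every H3K27ac and H3K4me1 list. The median over the 9 loci was 24.6 kb per 100 kb in untreated p42 cells and 29.9 in untreated p30 cells, against 6.69 and 6.85 over all genes. The loci did not stand equally high. In the 4 H3K27ac lists *Lyl1* and *Runx1* were the most densely covered and *Gata2* the least.

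**Figure D1:**
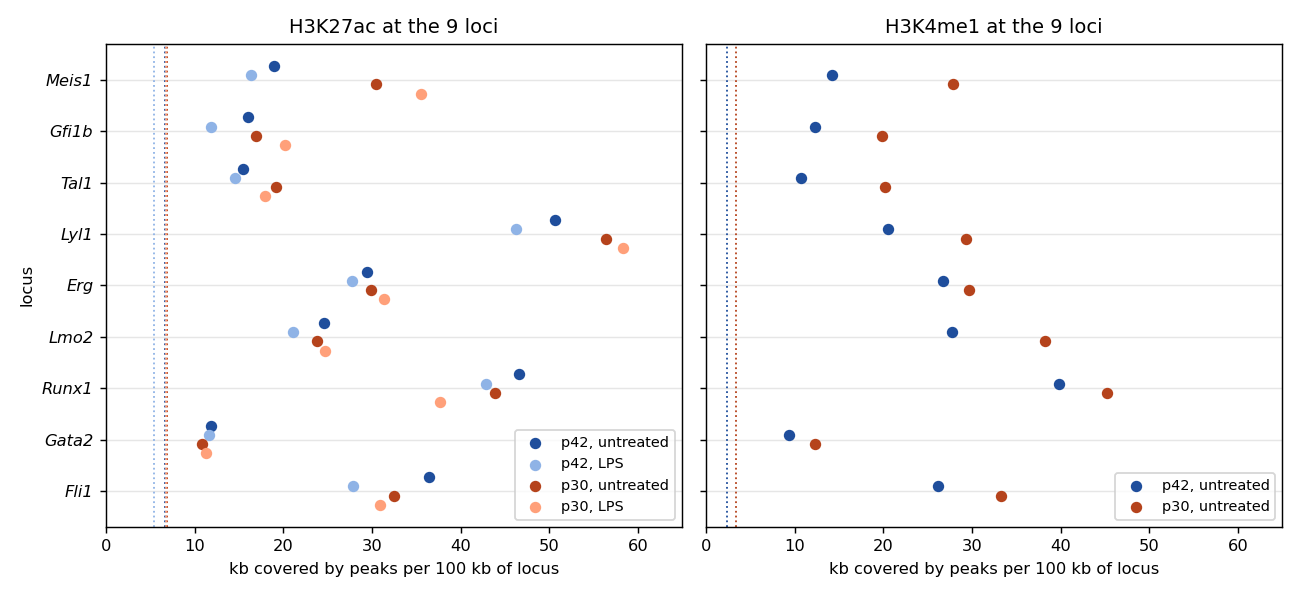
Length covered by H3K27ac peaks (left, 4 lists) and H3K4me1 peaks (right, 2 lists) in kb per 100 kb of each locus; each point is 1 pooled list, and dotted lines in the same colours mark the median of all protein-coding genes. All points lie to the right of those medians, and at *Meis1* the p30 points lie apart from the p42 points for both marks.

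At *Runx1* (chr16:92398354-92623037, minus strand), which codes for a factor needed to form blood stem cells, H3K27ac covered 151 kb in untreated p42, 139 kb in LPS-treated p42, 142 kb in untreated p30 and 122 kb in LPS-treated p30 cells. The highest value was thus that of untreated p42 cells and the lowest that of p30 cells with LPS. The best-ranked H3K4me1 peak of the locus was 33rd of 134658 in p42 and 135th of 168035 in p30 cells. It lay 21.5 kb and 21.6 kb downstream of the gene's 5′ end, in the first intron, which is known for a stem cell enhancer. The best H3K27ac peak of both untreated lists stood close by, 24.8 kb and 24.9 kb downstream, at ranks 1558 and 1563. The widest H3K27ac peak of the locus in p42 cells, 12056 bp untreated and 12087 bp with LPS, lay 110.7 kb downstream.

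At *Erg* (chr16:95160028-95387452, minus strand), an ETS factor gene with 8 annotated coding starts, H3K27ac covered 96.2 kb, 90.8 kb, 98.0 kb and 103 kb in untreated p42, LPS-treated p42, untreated p30 and LPS-treated p30 cells. The mark sat at the inner group of starts, 127.2 kb downstream of the 5′ end, and in the introns beyond it, while the outermost start had no peak. The peak at the inner promoter was 16501 bp wide in untreated p42 and 23446 bp in untreated p30 cells. The latter ranked 10th by width in its list. With LPS the peak there was 5661 bp wide in p42 and 10340 bp in p30 cells. In p30 cells part of the untreated span was called with LPS as a separate peak of 7566 bp. The widths thus depend on how peaks were split, and coverage of the locus in p30 cells was not lower with LPS.

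*Fli1* (chr9:32333500-32454157, minus strand), the other ETS gene, had 80.2 kb, 61.5 kb, 71.8 kb and 68.1 kb under H3K27ac in the same order of lists. Untreated p42 cells stood highest. Its widest peak lay 33.1 to 33.7 kb downstream in every list and measured 13647 bp, 16956 bp, 13671 bp and 12431 bp, and the LPS-treated p42 value ranked 19th by width. The best-ranked peak in all 4 lists was the promoter peak, 1.6 to 1.9 kb downstream.

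*Lmo2* (chr2:103788331-103812355, plus strand) had 30.6 kb, 26.2 kb, 29.5 kb and 30.7 kb. In each of the 4 lists its best-ranked H3K27ac peak lay 12.2 or 12.3 kb upstream of the gene, at rank 1067, 1811, 911 and 1283, and not at a promoter. The promoter peaks at the inner starts, 11.5 and 12.1 kb downstream, were in the best 4.30% of every list. Distal enhancers upstream of *Lmo2* are known from blood and endothelial cells.

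*Tal1* (chr4:114913623-114928952, plus strand) had 17.7 kb, 16.8 kb, 22.2 kb and 20.7 kb, with both p30 lists above both p42 lists. The best-ranked H3K27ac peak was the promoter peak, 4848 to 5133 bp wide. For H3K4me1 the best peak lay 18.4 kb downstream of the 5′ end in both lines, past the gene, in the part of the locus known for a stem cell enhancer. It was 1769 bp wide at rank 11324 in p42 cells and 4416 bp wide at rank 1593 in p30 cells.

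*Gata2* (chr6:88170559-88184018, plus strand) was the most thinly covered, at 13.4 kb, 13.2 kb, 12.2 kb and 12.9 kb, which is 10.8 to 11.8 kb per 100 kb. The 4 values differed by little. The peak with the best rank was the promoter peak, 3.7 kb downstream, in both p42 lists, and an intronic peak 10.1 kb downstream in both p30 lists. That intronic peak was also present in p42 cells, as the widest peak of the locus, at 5391 bp untreated and 4283 bp with LPS, against 5256 bp and 5661 bp in p30 cells.

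*Gfi1b* (chr2:28499462-28511994, minus strand) had 18007 bp, 13381 bp, 18976 bp and 22690 bp. The best-ranked H3K27ac peak of its locus, at rank 450, 549, 247 and 453, was nearest to a start of the neighbour *Tsc1*, 19.1 kb upstream. Peaks nearest to the start of *Gfi1b* itself covered 7.17 kb, 4.75 kb, 8.00 kb and 8.50 kb, the least in p42 cells with LPS. Its promoter peak stood at 17.5% to 24.6% of the list.

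*Lyl1* (chr8:85427936-85431569, plus strand), a short gene among *Ier2*, *Nacc1*, *Trmt1* and *Nfix*, had 52.5 kb, 47.9 kb, 58.5 kb and 60.4 kb in its locus. Only 19.3 kb, 20.0 kb, 24.5 kb and 22.4 kb lay under peaks nearest to its own starts. The best-ranked peak of the locus, at rank 809, 326, 749 and 600, stood 39.2 kb upstream at *Ier2*, an immediate early gene. The promoter peak of *Lyl1* was in the best 2.13% of every list and 9099 to 11291 bp wide.

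The comparison of the lines asked where the loci differed between p30 and p42 cells. In untreated cells the ratio of p30 to p42 coverage ranged from 0.89 at *Fli1* to 1.60 at *Meis1*, with a median of 1.02 over the 9 loci and 1.03 over all genes. *Meis1* was the 1 locus past 1.5-fold, a size reached by 6.56% of the genes with at least 2 kb covered in either list, and none was lower by that much, as 4.59% of genes were. With LPS, 2 of 9 loci were at least 1.5-fold higher in p30 cells, *Meis1* at 2.18 and *Gfi1b* at 1.70, against 18.6% of genes, and 0 of 9 were lower by that much, against 1.75%. The median ratio with LPS was 1.17 over the 9 loci and 1.23 over all genes, and the p42 list is the shorter of the pair. When the same number of peaks was taken from both lists, the ratios were 1.60 and 2.03 at *Meis1* and 1.53 at *Gfi1b* with LPS.

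**Figure D2:**
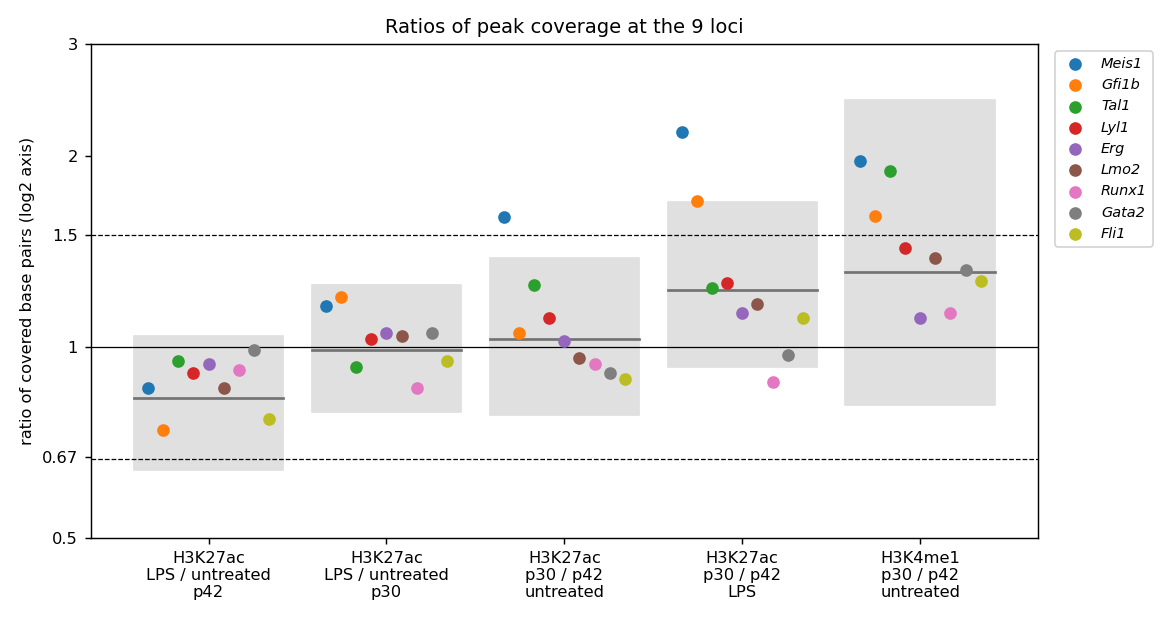
Ratio of base pairs covered by peaks at each locus (points) in 5 comparisons, on a log2 axis; each point rests on 1 list per group, grey boxes span the 10th to 90th percentile of all protein-coding genes tested, grey lines are their medians and dashed lines mark 1.5-fold. *Meis1* lies above the grey box in both H3K27ac comparisons of p30 with p42, at 1.60 and 2.18.

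At *Meis1* (chr11:18829817-18969749, minus strand, no other coding gene within the locus), H3K27ac covered 45.5 kb in untreated p42, 39.1 kb in LPS-treated p42, 73.1 kb in untreated p30 and 85.1 kb in LPS-treated p30 cells, in 55, 49, 78 and 85 peaks. Both p30 values stood above both p42 values. The untreated ratio was higher than that of 95.4% of genes and the LPS ratio higher than that of 96.9%. H3K4me1 covered 33984 bp in p42 and 66640 bp in p30 cells.

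The promoter of *Meis1* differed little between the lines in covered length. The merged region over it had 6409 bp, 6555 bp, 6747 bp and 6870 bp under peaks in untreated p42, LPS-treated p42, untreated p30 and LPS-treated p30 cells. The promoter peak ranked better in both p30 lists, at 5.68% untreated and 6.17% with LPS, against 9.75% and 9.93% in p42 cells. Regions inside the gene differed more in covered length. Around 47.8 kb downstream of the 5′ end the covered lengths were 4655 bp, 4393 bp, 7146 bp and 7282 bp. Around 55.9 kb they were 3768 bp, 2661 bp, 5951 bp and 5954 bp, and around 92.6 kb 6351 bp, 6614 bp, 8360 bp and 10480 bp. The 23 regions of the locus found in all 4 lists summed to 41.1 kb, 36.7 kb, 55.3 kb and 60.2 kb, so much of the p30 surplus was added width at regions that p42 cells also had. A further 20 of the 88 regions of the locus were in both p30 lists and in neither p42 list, as were 6.67% of all regions. They were 198 to 1228 bp wide, ranked from 28.1% to 78.9% of the untreated p30 list, and covered 7.02 kb and 7.88 kb. The reverse class, in both p42 lists and neither p30 list, was empty at *Meis1* and held 2.28% of all regions.

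**Figure D3:**
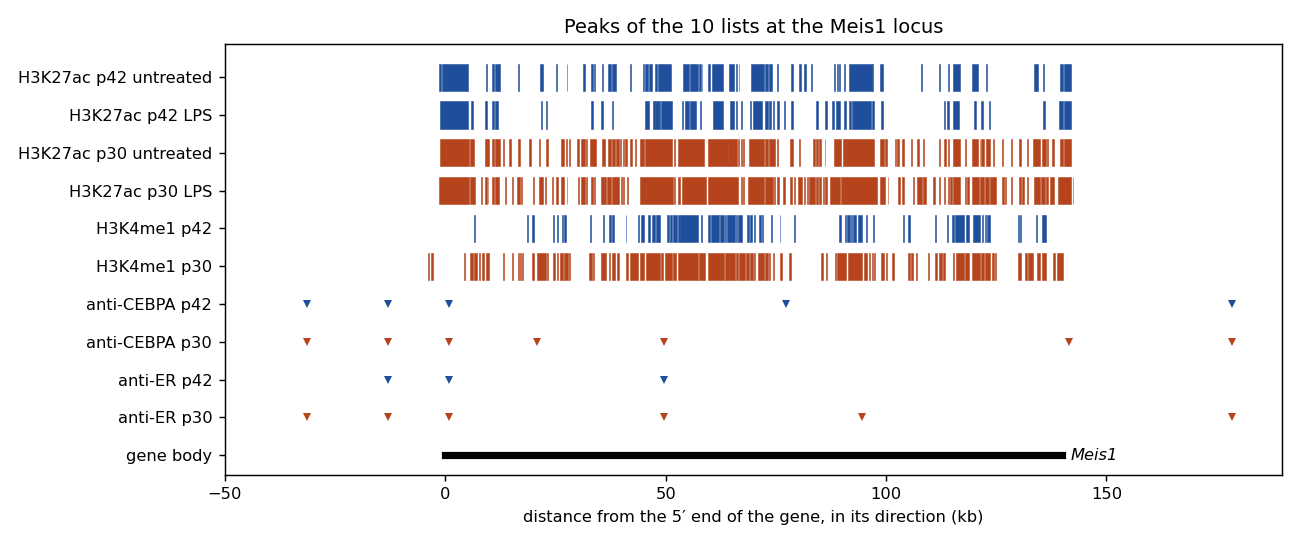
Peaks of the 10 lists at the *Meis1* locus by distance from the gene's 5′ end in kb, p42 in blue and p30 in red; boxes are histone peaks to scale, and triangles are summits of CEBPA sites (a site in the best 5% of its list would have a larger triangle, and none has). The p30 tracks of both marks are filled over more of the gene body than the p42 tracks, whereas the promoter block at 0 is of similar length in the 4 H3K27ac lists.

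Pooled over the 9 loci, the 4 H3K27ac lists gave 462 merged regions. In untreated cells 91 of them (19.7%, Wilson 95% interval 16.3 to 23.6, counting error only here and below) were in p30 cells alone and 50 (10.8%, 8.31 to 14.0) in p42 cells alone, against 22.3% and 16.3% of all regions. *Meis1* held 34 of the 91. Without it the p30 share was 57 of 374, or 15.2%. Regions in all 4 lists made up 192 of 462 (41.6%, 37.2 to 46.1), against 30.9% of all regions.

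H3K4me1 covered more in p30 cells at 9 of 9 loci, with ratios from 1.11 at *Erg* to 1.96 at *Meis1* and a median of 1.38, against 1.31 over all genes. The *Erg* ratio was above that of 30.7% of the genes with a ratio, so most genes had more in p30 cells too. *Meis1*, *Tal1* (23.2 kb against 12.3 kb, ratio 1.89) and *Gfi1b* (22.3 kb against 13.9 kb, ratio 1.61) were at least 1.5-fold higher, as were 35.7% of all genes, and none was 1.5-fold lower, as were 5.43%. The p30 list was also the longer one. With equal numbers of peaks *Meis1* and *Tal1* stayed at 1.90 and 1.81 and *Gfi1b* came to 1.47.

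LPS, the bacterial ligand of TLR4, was given to ask how H3K27ac responds to an inflammatory signal. Over all peaks of a locus, none passed 1.5-fold with it in either line. In p42 cells coverage was lower with LPS at 9 of 9 loci, from 0.99 at *Gata2* to 0.74 at *Gfi1b*, with a median of 0.91 against 0.83 over all genes. The *Gata2* ratio was above that of 84.2% of the genes with a ratio, so at least that share was lower with LPS too. Where only the peaks nearest to a gene's own starts were counted, *Lyl1* was at 1.04 and *Gfi1b* at 0.66, which is past 1.5-fold. Over all peaks, 0 of 9 loci were lower by 1.5-fold or more and 0 higher, against 13.6% and 0.709% of genes. In p30 cells the ratios ran from 0.86 at *Runx1* to 1.20 at *Gfi1b*, 6 above 1 and 3 below, with a median of 1.04 against 0.99 over all genes. Here too 0 of 9 were past 1.5-fold, against 3.24% of genes higher and 2.50% lower.

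By region, LPS-treated p42 cells had gained 39 of the 462 regions (8.44%, 6.24 to 11.3) and lost 72 (15.6%, 12.6 to 19.2), against 8.52% and 22.6% of all regions. LPS-treated p30 cells had gained 81 (17.5%, 14.3 to 21.3) and lost 64 (13.9%, 11.0 to 17.3), against 19.1% and 19.2%. Regions gained in both lines numbered 5 (1.08%, against 1.66%) and regions lost in both 13 (2.81%, against 3.95%). The 5 gained ones lay in *Runx1* introns 55.9 kb and 199.6 kb downstream, in the *Erg* locus 215.9 kb downstream, at *Meis1* 76.8 kb downstream and 19.1 kb upstream of *Gata2*. The *Gata2* one, 584 bp wide, ranked best in a list, at 31.7% of the LPS-treated p42 list. Of the 13 lost in both, *Runx1* and *Fli1* held 4 each and *Meis1* 2. Gains and losses were mostly narrow regions, with a median width of 308 bp for those gained and 427 bp for those lost in p42 cells, against 1639 bp for regions in all 4 lists.

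CEBPA sites were found at every locus in every list. At least 1 site was present for 86.7% of all genes in the p42 anti-CEBPA, 79.6% in the p30 anti-CEBPA, 70.5% in the p42 anti-ER and 79.6% in the p30 anti-ER list, so presence alone did not set these loci apart. The 9 loci held 56, 48, 57 and 65 sites in these lists. That is 3.33, 2.85, 3.39 and 3.87 sites per 100 kb, against 2.05, 1.46, 1.35 and 1.89 over the pooled loci of all genes. The p30 line had fewer sites than p42 by anti-CEBPA and more by anti-ER, as in the whole lists. With equal numbers of peaks both orders turned, to 48 sites in p30 against 43 in p42 cells by anti-CEBPA and 51 against 57 by anti-ER.

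**Figure D4:**
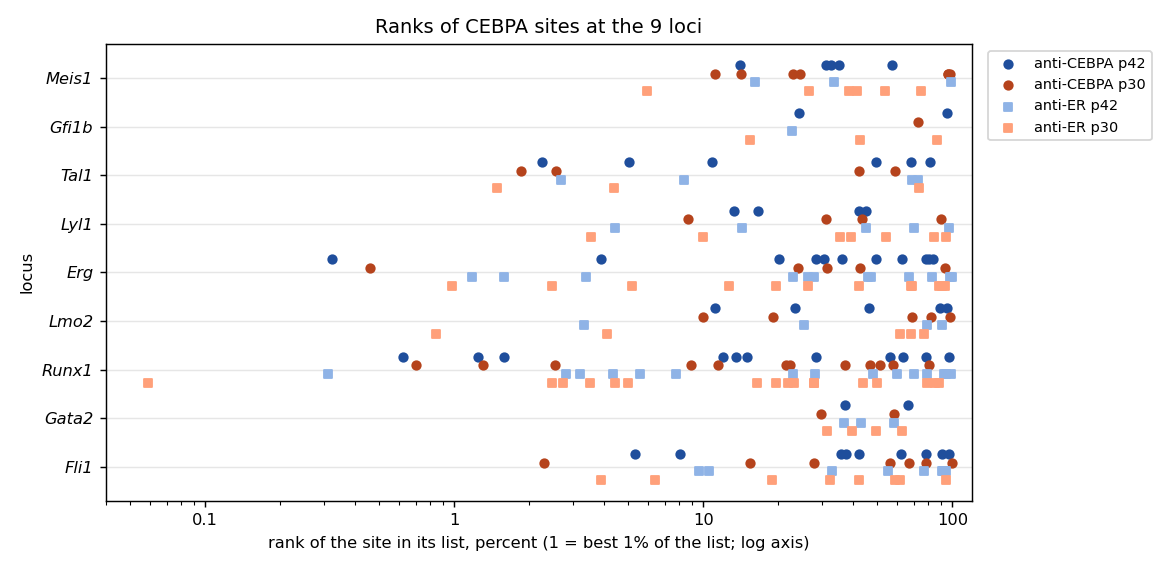
Rank of each CEBPA site of the 9 loci within its list, in percent of the list on a log axis, by locus; circles are anti-CEBPA and squares anti-ER sites, p42 in blue and p30 in red tones, with 1 library per list. *Runx1*, *Erg* and *Lmo2* hold the sites furthest to the left, and no site of *Gata2* ranks better than 29.6% of its list.

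Merging the 4 lists gave 85 sites, of which 34 were in all 4 lists. *Runx1* had 19 sites with 9 in all 4 lists, *Erg* 15 with 5, *Fli1* 11 with 6, *Lmo2* 9 with 2, *Meis1* 9 with 2, *Lyl1* 7 with 4, *Tal1* 6 with 3, *Gata2* 5 with 2 and *Gfi1b* 4 with 1. A start of the gene itself was the nearest coding start for 67 of the 85. Sequences are given to show what these sites hold: the site with the best p42 anti-CEBPA rank at 6 loci, with a second *Runx1* site, the *Tal1* promoter and an intronic *Gata2* site. Each is 200 bases of the GRCm39 reference genome, plus strand, around the p42 anti-CEBPA summit unless said otherwise. CEBPA binds as a dimer to a palindrome of the half-site TTGC, and capitals mark matches to the full consensus TTGCNNAA on either strand.

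The strongest *Runx1* sites were intronic. The site 110.5 kb downstream ranked 592nd of 47517 in p42 anti-CEBPA, 224th of 31851 in p30 anti-CEBPA, 72nd of 23248 in p42 anti-ER and 20th of 34006 in p30 anti-ER, with fold enrichments of 39.6, 60.6, 75.5 and 145. The site 210.7 kb downstream ranked 297th, 416th, 652nd and 932nd. The first lay inside an H3K27ac peak in all 4 lists and the second in both p42 lists and neither p30 list. In the first, the window holds 1 CEBP match, 1 TGATGCAA (the composite of CEBP and ATF4) and 1 ETS match, and in the second 1 CEBP, 1 RUNX and 1 AP-1 match.
*Runx1*, 110.5 kb downstream (chr16:92512405-92512604): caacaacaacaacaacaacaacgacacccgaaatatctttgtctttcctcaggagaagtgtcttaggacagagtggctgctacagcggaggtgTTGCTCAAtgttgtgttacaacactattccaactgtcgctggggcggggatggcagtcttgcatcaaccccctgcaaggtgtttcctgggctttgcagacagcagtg
*Runx1*, 210.7 kb downstream (chr16:92412196-92412395): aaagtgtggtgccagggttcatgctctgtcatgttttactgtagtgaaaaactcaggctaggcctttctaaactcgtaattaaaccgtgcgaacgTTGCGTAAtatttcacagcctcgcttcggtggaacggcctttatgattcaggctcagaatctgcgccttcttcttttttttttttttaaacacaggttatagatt

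A further *Runx1* site, 24.4 kb downstream, lay inside the best H3K27ac peak of both untreated lists. It was at 21.5% of the p30 anti-CEBPA list, 22.9% of the p42 anti-ER list and 4.42% of the p30 anti-ER list, and was absent from the p42 anti-CEBPA list.

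**Figure D5:**
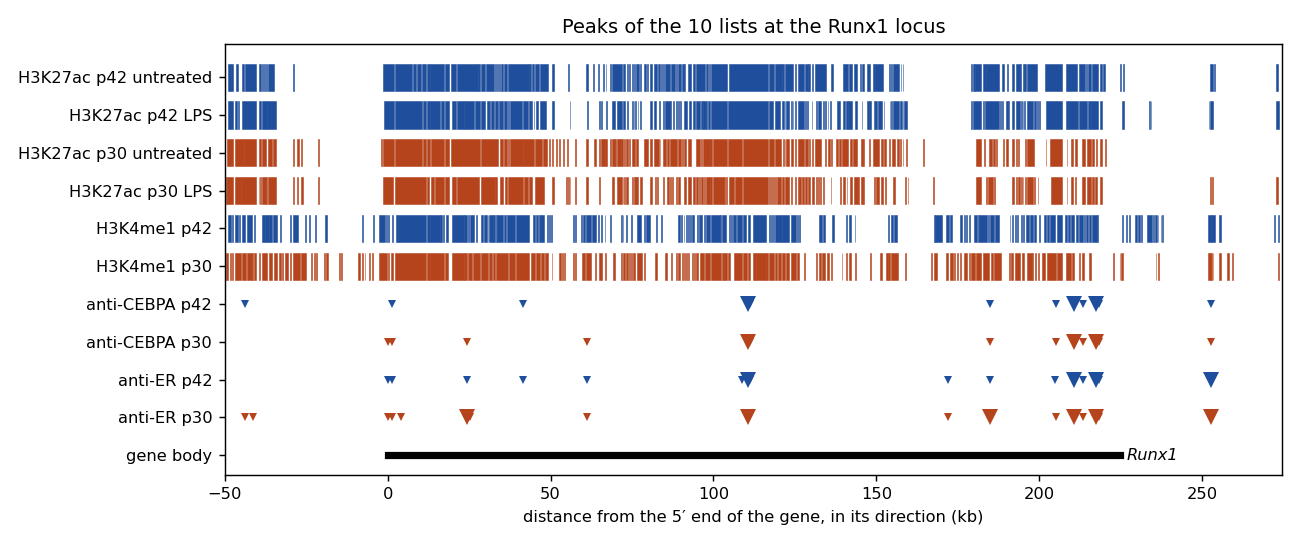
Peaks of the 10 lists at the *Runx1* locus by distance from the gene's 5′ end in kb, drawn as for *Meis1*; larger triangles are CEBPA sites in the best 5% of their list. Large triangles stand at 110.5, 210.7 and 217.4 kb in all 4 CEBPA lists, at 252.8 kb in both anti-ER lists and at 24.4 and 185.0 kb in the p30 anti-ER list, and H3K27ac and H3K4me1 peaks fill much of the gene body in both lines.

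At *Erg* and *Tal1* the best-ranked anti-CEBPA site lay outside both histone marks in both lines. The *Erg* site, in an intron 26.3 kb downstream of the outermost start, ranked 154th and 146th with anti-CEBPA and 368th and 332nd with anti-ER in p42 and p30 cells, with fold enrichments of 63.3, 67.4, 35.5 and 61.5. In the p42 anti-ER list another *Erg* intronic site, 121.8 kb downstream, ranked better, at 274th, and it lay in both marks in every list. The *Tal1* site, in an intron of the neighbour *Stil* 21.2 kb upstream, ranked 1068th and 589th with anti-CEBPA and 623rd and 502nd with anti-ER. The *Erg* summit at 26.3 kb and the *Tal1* summit did not fall in an H3K27ac or H3K4me1 peak of any list. The *Erg* window holds 1 CEBP match and none of the GATA, E-box, ETS, RUNX and AP-1 words.
*Erg*, 26.3 kb downstream (chr16:95361078-95361277): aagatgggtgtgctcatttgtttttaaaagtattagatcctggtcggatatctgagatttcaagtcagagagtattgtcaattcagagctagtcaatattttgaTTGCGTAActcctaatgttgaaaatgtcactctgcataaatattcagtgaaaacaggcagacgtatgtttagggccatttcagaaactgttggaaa

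The *Tal1* promoter held a site as well, 0.6 kb downstream of the 5′ end, at 5.03% and 2.57% of the anti-CEBPA lists and 8.34% and 4.37% of the anti-ER lists of p42 and p30 cells. It lay inside the promoter H3K27ac peak in all 4 lists. It is shown because it was, in each of the 4 lists, the best-ranked site at a promoter of the 9 genes.
*Tal1*, promoter (chr4:114914112-114914311): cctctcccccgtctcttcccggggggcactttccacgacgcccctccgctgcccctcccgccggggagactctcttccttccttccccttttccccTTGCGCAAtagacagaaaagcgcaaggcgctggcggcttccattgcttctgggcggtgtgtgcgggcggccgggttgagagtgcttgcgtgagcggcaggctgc

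At *Lmo2* the strongest site lay 10.9 kb upstream, inside the best H3K27ac peak of the locus in all 4 lists. It stood at 11.1% and 9.98% of the anti-CEBPA lists and at 3.31% and 0.844% of the anti-ER lists of p42 and p30 cells, with fold enrichments of 35.0 and 67.1 for anti-ER. At *Meis1* the best shared anti-CEBPA site of p42 cells, 13.0 kb upstream, stood at 14.0% in p42 and 11.1% in p30 cells by that antibody and lay outside both marks in every list. The *Lmo2* window holds 1 CEBP, 1 GATA and 1 ETS match and the *Meis1* window 1 CEBP and 2 E-box matches.
*Lmo2*, 10.9 kb upstream (chr2:103777333-103777532): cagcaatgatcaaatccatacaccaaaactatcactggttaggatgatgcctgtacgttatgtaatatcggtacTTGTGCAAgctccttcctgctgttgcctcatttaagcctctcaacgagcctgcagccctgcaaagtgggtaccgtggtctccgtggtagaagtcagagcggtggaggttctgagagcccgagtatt
*Meis1*, 13.0 kb upstream (chr11:18982641-18982840): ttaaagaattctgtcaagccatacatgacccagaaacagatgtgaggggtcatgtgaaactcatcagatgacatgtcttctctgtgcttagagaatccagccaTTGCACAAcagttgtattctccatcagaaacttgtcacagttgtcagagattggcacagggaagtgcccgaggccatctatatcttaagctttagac

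The *Meis1* promoter site, 0.7 kb downstream of the annotated 5′ end, was in all 4 lists and inside H3K27ac in all 4. In p42 cells it stood at 35.1% by anti-CEBPA and 16.1% by anti-ER, and in p30 cells at 14.1% and 5.93%, so its rank was better in p30 cells with both antibodies. The *Meis1* regions that were wider in p30 cells held weaker sites or none. The region around 47.8 kb had a site 49.7 kb downstream at 96.1% of the p30 anti-CEBPA, 99.1% of the p42 anti-ER and 53.8% of the p30 anti-ER list, and the region around 92.6 kb had a site 94.6 kb downstream at 74.7% of the p30 anti-ER list alone. The region around 55.9 kb had no site in any list.

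At *Fli1* the best sites shared by all 4 lists were intronic. The site 109.3 kb downstream, nearest to the start of the neighbour *Kcnj1*, was at 5.31% of the p42 anti-CEBPA list and in H3K27ac of both untreated lists. The site 3.4 kb downstream stood better in the other lists, at 2.30% of the p30 anti-CEBPA list and 9.59% and 3.88% of the p42 and p30 anti-ER lists. The *Fli1* window shown holds no match to the full consensus. *Gfi1b* had 1 shared site, 3.1 kb downstream in an intron, at 24.2% and 72.4% of the anti-CEBPA and 22.6% and 15.4% of the anti-ER lists. Its summit lay 3.1 kb downstream by p30 anti-ER and 3.3 kb downstream by p42 anti-CEBPA. The window shown for it is centred on the p42 anti-CEBPA summit at 3.3 kb, and has 1 AP-1 match and no CEBP match.
*Fli1*, 109.3 kb downstream (chr9:32344763-32344962): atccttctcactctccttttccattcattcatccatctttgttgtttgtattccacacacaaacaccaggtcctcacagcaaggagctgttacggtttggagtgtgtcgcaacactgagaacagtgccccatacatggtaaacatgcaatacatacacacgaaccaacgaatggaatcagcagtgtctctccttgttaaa
*Gfi1b*, 3.1 kb downstream (chr2:28508592-28508791): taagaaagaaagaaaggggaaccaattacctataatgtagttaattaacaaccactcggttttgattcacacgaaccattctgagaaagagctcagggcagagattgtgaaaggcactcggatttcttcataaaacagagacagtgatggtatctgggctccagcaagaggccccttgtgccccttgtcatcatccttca

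The best *Gata2* site ranked lower than that of the other loci in 3 of the 4 lists, and in the p30 anti-CEBPA list that of *Gfi1b* ranked lower. The shared *Gata2* sites, 11.7 kb upstream and 60.7 kb downstream in an exon of the neighbour *Dnajb8*, stood between 29.6% and 66.0% of the lists. A site in the intronic H3K27ac peak, 9.7 kb downstream, was in the p30 anti-ER list alone, at 39.5% of it. Its window is shown because it holds an E-box 6 to 9 bases before a GATA site, the composite that TAL1 and GATA factors bind together and that is known from an intronic *Gata2* enhancer. Such a composite was in 2 of the 65 p30 anti-ER sites of the 9 loci (3.08%, 0.848 to 10.5), against 0.909% of all sites of that list. In the p42 anti-ER, p30 anti-CEBPA and p42 anti-CEBPA lists it was in 1 of 57, 1 of 48 and 0 of 56 sites of the loci. Over all sites of those lists the shares were 0.869%, 0.854% and 0.844%. Here the window is centred on the p30 anti-ER summit and capitals mark the composite.
*Gata2*, 9.7 kb downstream (chr6:88180152-88180351): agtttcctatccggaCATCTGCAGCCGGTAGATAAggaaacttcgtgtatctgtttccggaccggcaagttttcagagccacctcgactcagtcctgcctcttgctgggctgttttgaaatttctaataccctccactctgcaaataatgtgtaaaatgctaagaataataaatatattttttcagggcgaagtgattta

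RUNX words were found at larger shares of the sites than in the whole list in each of the 4 lists, and AP-1 and TGATGCAA at smaller ones, on few sites. The lists are not independent, since 34 of the 85 merged sites were in all 4 lists. A CEBP match lay within 200 bp around the summit at 53.6% (30 of 56, 40.7 to 66.0) of the p42 anti-CEBPA, 54.2% (40.3 to 67.4) of the p30 anti-CEBPA, 50.9% (38.3 to 63.4) of the p42 anti-ER and 41.5% (30.4 to 53.7) of the p30 anti-ER sites, against 50.7%, 53.0%, 51.7% and 47.0% of all sites. GATA words (the word AGATAA, the word AGATAG, the word TGATAA or the word TGATAG, either strand as for all words) were at 33.9%, 29.2%, 31.6% and 40.0%, against 35.5%, 34.4%, 30.3% and 32.1%. RUNX words (TGTGGT or TGCGGT) were at 21.4%, 27.1%, 33.3% and 35.4%, against 17.2%, 18.2%, 22.8% and 23.9%. The whole-list share lay inside the interval of the 9 loci for the CEBP, GATA and RUNX words in each list except RUNX in p30 anti-ER (24.9 to 47.5). ETS words (CAGGAA or CCGGAA) were at 21.4% to 32.3%, E-boxes (CAGCTG or CATCTG) at 22.8% to 27.7%, and AP-1 (TGANTCA) at 6.15% to 7.14% of the sites. Over all sites these ran from 21.6% to 28.9%, 19.9% to 23.4% and 7.29% to 8.92%. The AP-1 shares rested on 3 or 4 sites a list, and the whole-list share lay inside the interval of the 9 loci in each list. TGATGCAA was at 5.36%, 6.25%, 1.75% and 3.08%, which is 1 to 3 sites a list, against 10.1%, 10.6%, 6.25% and 6.53% of all sites, and those shares lay inside the interval of the 9 loci in each list.

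A CEBPA site at a promoter was found for 3 of 9 genes in the p42 anti-CEBPA list (*Meis1*, *Erg*, *Tal1*), 4 in the p30 anti-CEBPA list and 4 in the p42 anti-ER list (these 3 and *Runx1*), and 5 in the p30 anti-ER list (*Meis1*, *Runx1*, *Tal1*, *Gata2*, *Lyl1*). Over all genes the shares were 8.07%, 7.67%, 7.26% and 11.6%. *Meis1* and *Tal1* had a promoter site in all 4 lists. The *Erg* site was also in the p30 anti-ER list, at 26.2% of it, but with its summit outside the promoter window. The *Runx1* promoter site, 0.1 kb downstream of the outermost start, was weaker, at 80.7% of the p30 anti-CEBPA list, 94.5% of the p42 anti-ER list and 27.7% of the p30 anti-ER list. *Lmo2*, *Fli1* and *Gfi1b* had none. The best-ranked site of the *Lyl1* locus lay 39.5 kb upstream in an exon of *Ier2*, at 13.3% and 8.69% of the anti-CEBPA and 4.42% and 3.53% of the anti-ER lists of p42 and p30 cells, inside H3K27ac in all 4 lists.

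A larger share of the CEBPA sites lay in H3K27ac at the 9 loci than in the lists as a whole. The summit was inside an untreated H3K27ac peak of the same line for 38 of 56 p42 anti-CEBPA sites (67.9%, 54.8 to 78.6), 34 of 48 p30 anti-CEBPA sites (70.8%, 56.8 to 81.8), 46 of 57 p42 anti-ER sites (80.7%, 68.7 to 88.9) and 50 of 65 p30 anti-ER sites (76.9%, 65.4 to 85.5), against 18.9%, 21.7%, 43.9% and 38.3% of all sites. H3K4me1 held 30.4% (19.9 to 43.3), 47.9% (34.5 to 61.7), 38.6% (27.1 to 51.6) and 52.3% (40.4 to 64.0), against 10.0%, 15.0%, 20.1% and 26.5%. The loci were also covered more densely by both marks than the genome around other genes, and the part of that in these shares was not tested. Of the 85 merged sites, 66 lay in H3K27ac of at least 1 list, 47 in all 4 lists, and 17 in neither mark. Of the 6 *Tal1* sites 1 lay in H3K27ac, and of the 9 *Meis1* sites 4, against 17 of 19 at *Runx1* and 12 of 15 at *Erg*.

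Most sites were common to both lines. A site of the other line, same antibody, overlapped 39 of 56 p42 anti-CEBPA sites (69.6%, 56.7 to 80.1), 39 of 48 p30 anti-CEBPA sites (81.2%, 68.1 to 89.8), 48 of 57 p42 anti-ER sites (84.2%, 72.6 to 91.5) and 47 of 65 p30 anti-ER sites (72.3%, 60.4 to 81.7), against 55.3%, 82.5%, 84.1% and 57.0% of all sites. The other antibody in the same line was found at 80.4% (68.2 to 88.7), 89.6% (77.8 to 95.5), 78.9% (66.7 to 87.5) and 64.6% (52.5 to 75.1) of these sites, against 38.1%, 63.3%, 78.0% and 59.1%. Some sites were seen by both antibodies in 1 line and by none in the other. In p42 cells these were *Erg* introns 198.1 kb and 201.0 kb downstream and a *Runx1* intron 41.6 kb downstream, and in p30 cells an intergenic site 23.4 kb upstream of *Lmo2* and the promoter of its neighbour *Fbxo3*. None of these ranked better than 47.2% in a list that held it.

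The best-ranked site of a locus was at 11.1%, 8.69%, 4.42% and 3.53% of the p42 anti-CEBPA, p30 anti-CEBPA, p42 anti-ER and p30 anti-ER lists in the median of the 9 loci, against 21.4%, 25.6%, 26.0% and 21.2% for genes with a site. The median locus was 124 kb long, against 119 kb over all genes, but those of *Fli1*, *Meis1*, *Runx1* and *Erg* ran from 221 to 327 kb. A longer locus has more peaks to take the best from, and the part of that in these ranks was not tested. For H3K27ac the median best peak was at 1.20%, 2.55%, 1.14% and 1.99% of the untreated p42, LPS-treated p42, untreated p30 and LPS-treated p30 lists, against 2.80%, 3.31%, 2.58% and 2.46%, and for H3K4me1 at 1.89% and 0.979%, against 8.01% and 7.52%.

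Other genes of the progenitor network were set beside the 9. Of 16 such genes, 12 had H3K27ac at a promoter in all 4 lists, against 49.3% of all genes, among them *Kit*, the receptor of stem cell factor, *Myb*, *Etv6* and the heptad partners *Ldb1*, *Cbfb*, *Tcf3* and *Tcf12*. *Mecom*, *Hoxa9* and *Klf1* were among those that did not. A CEBPA site lay in the locus of 16, 15, 14 and 14 of them in the p42 anti-CEBPA, p30 anti-CEBPA, p42 anti-ER and p30 anti-ER lists. Over all genes the shares with a site were 86.7%, 79.6%, 70.5% and 79.6%. *Etv6* held 13, 11, 18 and 22 sites in these lists. For H3K27ac in p30 against p42 cells, 0 of 14 genes with a ratio passed 1.5-fold untreated and 1 of 14 with LPS (*Zfpm1*, the gene of the GATA cofactor FOG1, 1.71), against 6.56% and 18.6% of all genes, and the medians were 1.04 and 1.33. With LPS, 2 of 14 were at least 1.5-fold lower in p42 cells (*Cbfb* 0.65, *Tcf12* 0.66) and 0 of 14 in p30 cells, against 13.6% and 2.50% of all genes. H3K4me1 was at least 1.5-fold higher in p30 cells at 2 of 12 genes with a ratio, *Tcf12* at 1.88 and *Zfpm1* at 1.70, against 35.7% of all genes.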

How the data were processed

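Peak lists were used as deposited by the authors. Per the methods, reads were trimmed with Trim Galore 0.6.6, aligned with Bowtie2 to mm39, cleared of duplicates with Picard, and peaks were called with MACS2 against input, on pooled replicates for the histone marks and on 1 library for each CEBPA antibody. Names of all lists but the anti-CEBPA ones state that MACS2 ran without its fragment model. H3K4me1 chromatin was cut with micrococcal nuclease and the rest sonicated. The values the authors deposited are a fold enrichment (a ratio to local background) and the −log10 of a p-value and of a q-value. Lists reach down to a q-value of about 0.05. They were used only within a list, to rank (by −log10 p) or filter.

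Groups came from the sample labels. Peaks on the autosomes, X and Y were placed by summit with GENCODE vM39 on GRCm39. Coverage ratios were called at 1.5-fold among loci with at least 2000 bp covered in 1 list. H3K27ac regions are the merged peaks of 4 lists. Overlap meant at least 1 bp. Annotated starts within 500 bp counted as 1 promoter. Sequences were read from GRCm39; windows over an annotated UTR are not shown. The members, the network genes, the markers and the alternatives were chosen with earlier results of these data known. Named items were all 9 genes, their promoter peaks, the best-ranked peak and CEBPA site of each list, CEBPA sites in all 4 lists or of 1 line with both antibodies, and regions gained or lost with LPS in both lines; other *Meis1* regions, the *Runx1* site at 24.4 kb and the intronic *Gata2* site were chosen after their values were seen. Alternatives were other q-values, equal numbers of peaks, flanks of 25 and 100 kb, other overlap, promoter and window rules and ranking by fold, with 2 added after seeing the data. The steps were tested on simulated data, in which the coverage ratio of all 300 planted loci was recovered. Software was Python 3.11.15, with matplotlib 3.10.9 for plots, scipy 1.17.1 for intervals, and pandas 2.3.3 and numpy 2.4.6 for tables. The human ATF4 list was not used here. Some items are not reported here.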

Additional observations from a re-analysis of the deposited data

Results flagged for a closer look

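At 2 of the 9 loci H3K27ac coverage moved in opposite directions with LPS in the 2 lines, by at least 10% in each. At *Meis1* it changed by -14.1% in p42 cells (45.5 to 39.1 kb) and by 16.4% in p30 cells (73.1 to 85.1 kb). At *Gfi1b* it changed by -25.7% in p42 cells (18007 to 13381 bp) and by 19.6% in p30 cells (18976 to 22690 bp). Counting only peaks nearest to a start of *Gfi1b* itself, the LPS to untreated ratios were 0.66 in p42 cells, past 1.5-fold, and 1.06 in p30 cells. The p30 change at *Gfi1b* was then under 10%. Each value rests on 1 pooled list, so whether p42 and p30 cells differ here was not tested. Over all genes the median LPS to untreated ratio was 0.83 in p42 and 0.99 in p30 cells. The share of all genes that moved in opposite directions by at least 10% is not given here.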

How the results depend on the processing

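Of 614 values recomputed under an alternative, 544 stayed within 1.5 times of the main value with the same call (ratios, counts and ranks) or within its interval (shares). No ratio past 1.5-fold crossed 1. Some ratios near 1 did, among them the number of p30 against p42 sites with equal numbers of peaks (0.86 to 1.12 by anti-CEBPA, 1.14 to 0.89 by anti-ER), the median untreated H3K27ac ratio of p30 to p42 at q-values under 1e-05 (1.02 to 0.96) and single-locus ratios at *Gata2*, *Gfi1b*, *Lmo2*, *Lyl1* and *Fli1*. *Meis1* kept at least 1.5-fold more H3K27ac and H3K4me1 in p30 cells under every alternative run. Leaving out a replicate could not be run, since the lists pool replicates or hold 1 library. No paired analysis was possible because each group has 1 list. Values that moved were as follows. With q-values under 1e-05 the median H3K4me1 ratio of p30 to p42 was 1.55, and 97.6% of p30 anti-CEBPA sites were also found by anti-ER. With equal numbers of peaks, regions gained in p42 cells were 12.2% and those of untreated p42 cells alone 14.2%, sites shared with the other line were 81.4% of p42 anti-CEBPA and 82.4% of p30 anti-ER sites, and sites with both antibodies 91.4% of p42 anti-CEBPA and 56.1% of p42 anti-ER sites. Where presence needed a q-value under 1e-05 and absence no peak at all, gains and losses fell to 2.30% and 6.91% in p42 and 8.55% and 4.61% in p30 cells, and untreated regions of 1 line to 6.58% (p42) and 9.21% (p30). With 25 kb flanks 95.1% of p42 anti-CEBPA sites had both antibodies, and with reciprocal overlap of 50% 70.2% of p42 anti-ER sites were shared between the lines. Within 500 bp of a peak, H3K4me1 held 69.6%, 70.8%, 80.7% and 75.4% of p42 anti-CEBPA, p30 anti-CEBPA, p42 anti-ER and p30 anti-ER sites, and H3K27ac 89.5% of p42 anti-ER sites. With promoters of 2500 bp on both sides, 5 genes had a p42 anti-CEBPA site there. Counting only the 5′ end of the gene, 0, 0, 1 and 0 genes had a promoter site in the p42 anti-CEBPA, p30 anti-CEBPA, p42 anti-ER and p30 anti-ER lists. Ranked by fold, the median best H3K27ac peak of untreated p30 cells was at 1.98%. Without the *Meis1* locus, untreated regions of p30 cells alone were 15.2%. Among single loci and motifs 42 of the values moved, most of them motif shares. The cause of these shifts was not tested, beyond what each setting does by construction.

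Limits are that a longer list covers more, that peak calls cannot separate depth from level, and that neighbours' promoters lie in 6 of the loci.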
